A study of Mus musculus with 51 samples.

Results

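The 4 genes described here, Jun, Jund, Zfp36 and Maff, are the immediate-early genes chosen by name among the 6248 genes of a spatial transcriptomics data set of the mouse cochlea. All 4 were listed in every region and all 4 passed the filter on low values, which 4686 genes passed. Cochlear sections of 6 µm from fresh-frozen tissue of male CBA/CaJ mice aged 16 weeks had been measured with GeoMx, a method in which barcoded probes are released by light from chosen regions of a section and counted by sequencing. The noise group had received broadband noise at 100 dB SPL for 2 h and the mock group a mock exposure, with 5 animals per treatment. No transgene or drug was named for any of the groups. Titles added 4 h to the exposure, whereas by the design text the animals were killed at its end, so the time at which these genes were read is not settled. Of 51 regions, 50 were used: 16 neuron and 14 supporting-cell regions after mock exposure, and 12 neuron and 8 supporting-cell regions after noise. Noise neuron replicate 6, whose values were all equal, was left out.

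Immediate-early genes are transcribed within minutes of a stimulus, without new protein synthesis, from promoters that are already occupied by factors such as SRF and CREB. Jun and Jund encode bZIP proteins that pair with Fos or ATF proteins to form the AP-1 transcription factor; Jun is activated by the kinase JNK in stressed and injured neurons, whereas Jund is present at a steady level in many resting cells. Zfp36 encodes tristetraprolin, which binds AU-rich elements in mRNAs and recruits the CCR4-NOT deadenylase to them. Maff encodes a small Maf protein, which has no activation domain and pairs with CNC factors such as Nfe2l2 at antioxidant response elements. In the cochlea, JNK and Jun have been studied in the response of hair cells and spiral ganglion neurons to noise and to aminoglycosides.

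To show the elements through which such genes can be induced, the 250 bases upstream of each RefSeq start site (GRCm38.p6) were searched on both strands for 6 motifs. These were the AP-1 site TGACTCA, the cAMP response element TGACGTCA and the variant TGACATCA known from the Jun promoter. The others were the antioxidant response element core TGACNNNGC, the heat shock unit pair in the arrangement TTCNNGAA and the CArG box bound by SRF. The stretches of 30 bases around each match are printed 5′ to 3′ on the gene's strand, with the matched letters in capitals.
Jun, chr4:95052249-95052278, minus strand: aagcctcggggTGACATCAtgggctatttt
Zfp36, chr7:28379268-28379297, minus strand: cccaggccgccCCATAAAAGGagaaagctc
Maff, first start, chr15:79346498-79346527, plus strand: ggggcgtctcaTGACTCTGCcactggaaag
Maff, middle start, chr15:79347480-79347509, plus strand: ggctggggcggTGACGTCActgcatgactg
Maff, further start, chr15:79348346-79348375, plus strand: ctggagccatgTGACATCAgtgtttgttcc

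The Jun match lay at -45 to -38 from the start site, and TGACATCA occurred in 2.93% of all 32851 RefSeq windows, each likewise of 250 bases upstream of a start site. The Zfp36 match was a CArG box at -58 to -49, a motif found in 1.47% of windows. Maff has several start sites in RefSeq, and 3 of their windows held a match. These were an antioxidant response element core at -112 to -104 (10.2% of windows), a cAMP response element at -29 to -22 (1.55%) and TGACATCA at -45 to -38. The Jund window held none of the 6 motifs. No window of the 4 genes held TGACTCA (4.46% of windows) or TTCNNGAA (7.17%). The genes lie at chr4:95049036-95052222 (Jun), chr8:70697739-70700616 (Jund), chr7:28376784-28379228 (Zfp36) and chr15:79346621-79359078 (Maff), and all 4 are annotated as protein-coding.

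The measurements were shallow, and this bears on every value of the 4 genes. The deposited signal had been scaled to an upper quartile of 3.12 in each region, and within a region the values were whole multiples of what 1 read was worth. No value was below 1 read, so a gene listed at 1 read may have had no read at all. Median recovered reads per neuron region were 23494 after mock exposure and 26710 after noise, and per supporting-cell region 12885 and 16882. These totals count each gene listed at 1 read as 1 read, so they may be too high. A median of 31.3% of genes stood at 1 read in mock and 19.2% in noise neuron regions. In supporting-cell regions it was 51.6% and 35.4%. The worth of 1 read ran from 0.208 to 1.56 over the regions, so that a signal of 1.56 could be 1 read in a shallow region. The negative probe, which targets no mouse transcript, averaged 1.09 ± 0.314 (SD, n = 16) after mock exposure and 1.12 ± 0.235 (n = 12) after noise in neurons. In supporting cells it averaged 1.54 ± 0.256 (n = 14) and 1.42 ± 0.202 (n = 8). Regions labelled neuron carried the neurofilament gene Nefl at 50.8 ± 16.0 (SD, n = 16) after mock exposure, against 11.5 ± 4.90 (n = 14) in supporting-cell regions. The 7 measured markers of Schwann cells and satellite glia had a summed signal of 85.8 to 148 in mock supporting-cell regions and of 19.8 to 43.7 in mock neuron regions. Of 9 markers fixed for supporting cells of the organ of Corti, only Sox2 and Prox1 were measured, at 1.66 ± 0.704 and 2.21 ± 0.948 in mock supporting cells, near the negative probe. The supporting-cell regions are therefore called by their label, and their leading markers were those of Schwann cells and satellite glia.

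None of the 4 genes passed the test for noise against mock in either region type. In neurons, 31 of 4686 genes passed an adjusted p of 0.05 (0.662%), and in supporting cells 17 did (0.363%). The point estimates differed among the 4 genes: Jund was lower after noise in neurons, Maff was higher after noise in supporting cells, Zfp36 was higher after noise in both region types without reaching the threshold, and Jun stood at log2 fold changes of 0.17 and 0.16. The region types were also compared within each treatment. Under mock exposure 939 of 4686 genes passed (20%), and 2 of the 4 genes were among them, Jund with a higher level in neurons and Zfp36 with a higher level in supporting cells. After noise 388 genes passed (8.28%) and none of the 4 did. The tests were limma's, with Benjamini-Hochberg adjustment over all 4686 genes, on log2(value + 1), a scale that understates changes of low genes. The labels do not tie regions to animals and each group held more regions than animals, so some regions come from the same animal and p-values over regions are too small throughout.

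**Figure D1:**
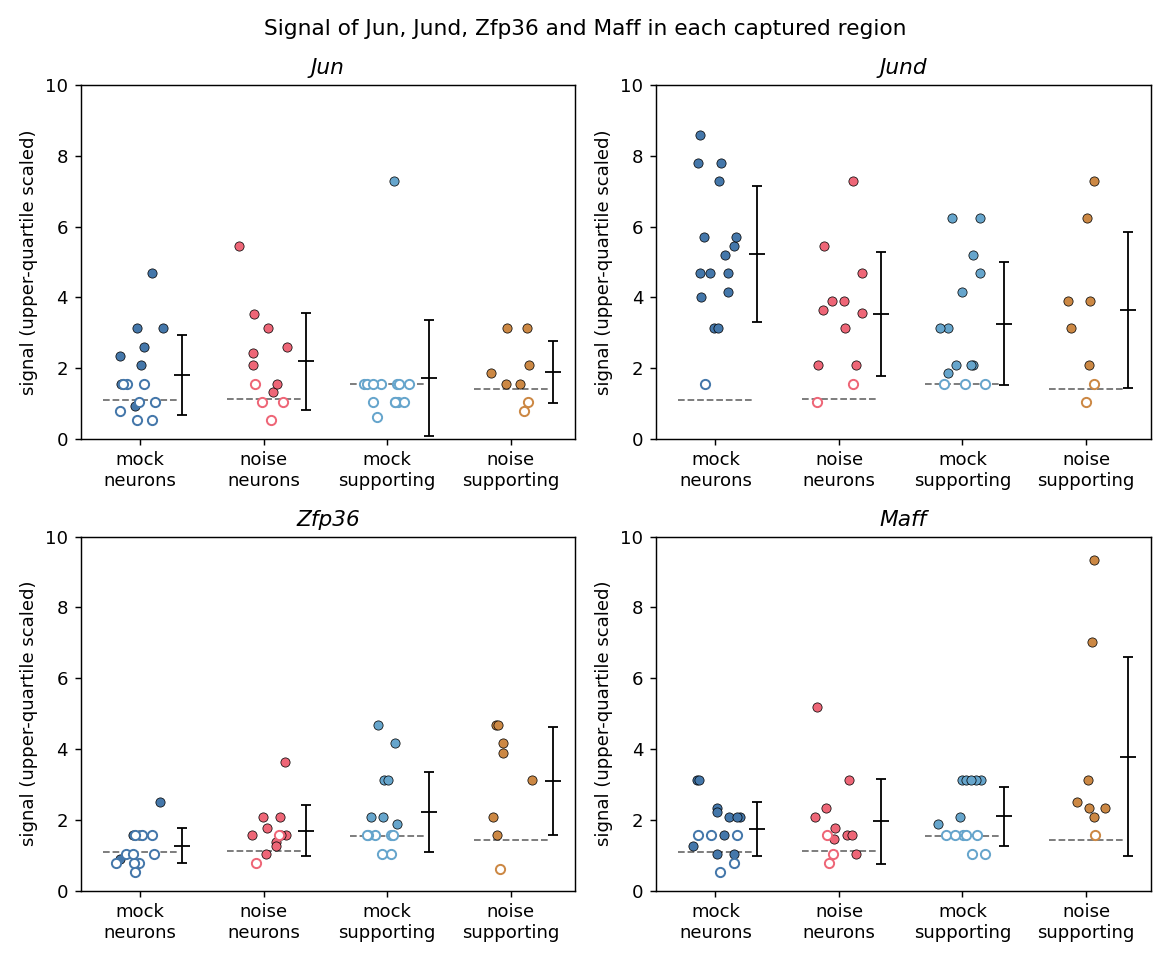
Signal of Jun, Jund, Zfp36 and Maff in each of 50 regions (y axis, deposited upper-quartile-scaled signal), by group (x axis); filled points are regions with more than 1 read of the gene, open points regions at 1 read, the bar and whiskers are mean ± SD, and the dashed line is the group mean of the negative probe. Jund lies highest in mock neurons, and the 2 highest Maff values, 9.36 and 7.02, are both in noise supporting cells.

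Jund was the AP-1 gene with most regions above 1 read: 15 of 16 mock and 10 of 12 noise neuron regions, and 11 of 14 mock and 6 of 8 noise supporting-cell regions. Its signal in mock neurons had a lowest value of 1.56, a median of 4.94 and a highest of 8.58, and in noise neurons a lowest of 1.04, a median of 3.60 and a highest of 7.28. The groups overlapped over most of their range, but 10 of 12 noise neuron regions lay below the mean of mock neurons. The means were 5.22 ± 1.92 (SD, n = 16) after mock exposure and 3.52 ± 1.75 (n = 12) after noise. On the log2 scale the fold change was -0.49 (SE 0.21, 95% confidence interval -0.90 to -0.08). It had an unadjusted limma p of 0.0201 and an adjusted p of 0.273, so it did not pass. An unadjusted p under 0.05 was reached by 13.5% of all genes in this comparison. A two-sided permutation test over regions gave p = 0.0235. The neuron markers lay lower in the same regions. All 9 measured had log2 fold changes below 0, with a median of -0.43, beside 2171 of all 4686 genes below 0. Of the 9 markers 1 passed as lower, beside 21 of all genes. The summed signal of these markers ran from 172 to 417 in mock neurons and from 102 to 256 in noise neurons. The part of this in the Jund value was not tested. In such bulk regions fewer cells of a type and less RNA per cell cannot be told apart.

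In supporting cells the Jund groups overlapped over nearly the whole range. Mock regions had a lowest value of 1.56, a median of 2.60 and a highest of 6.24, and noise regions 1.04, 3.51 and 7.28. The log2 fold change was 0.08 (SE 0.24, 95% confidence interval -0.40 to 0.56) with an adjusted p of 0.940 by limma. The difference between the noise effects in the 2 region types was itself tested. It came to 0.57 (SE 0.32, supporting cells minus neurons), with an adjusted p of 0.874 by limma, so the noise effect on Jund was not shown to differ between them. No gene of the 4686 passed that test by limma, edgeR or DESeq2, and 263 (5.61%) had an unadjusted limma p under 0.05.

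Under mock exposure Jund was higher in neurons than in supporting cells by 0.58 on the log2 scale (SE 0.20, 95% confidence interval 0.19 to 0.97, adjusted p = 0.0218 by limma with the captured area as a random block). A higher level in neurons passed for 13.8% of all genes. The region types had been captured side by side. Over the 14 mock areas with both types Jund was higher in the neuron region in 9, lower in 3 and equal in 2 (mean log2 difference 0.49, exact sign-flip permutation p = 0.00879). Areas also outnumber the 5 animals per treatment, so sign-flip p-values over areas are too small as well, here and below. Adding the mean of the olfactory receptor genes, a per-region background level, as a covariate brought the difference to 0.26 (adjusted p = 0.712 by limma). On the log2 scale that level was 1.41 ± 0.112 (SD, n = 16) in mock neurons and 1.65 ± 0.0777 (n = 14) in mock supporting cells. It differed with the region type, so this fit cannot tell background and region type apart. DESeq2 on recovered reads gave a Jund difference of 0.62 with an adjusted p of 0.165. After noise the difference was 0.01 (SE 0.25, adjusted p = 0.989 by limma), and over 7 areas Jund was higher in neurons in 3 and in supporting cells in 3.

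Jun lay at or near 1 read in much of the data set. In mock neurons its signal ran from 0.520 through a median of 1.56 to 4.68, with 8 of 16 regions above 1 read, and in noise neurons from 0.520 through 1.82 to 5.46, with 8 of 12 above 1 read. The ranges nearly coincided, and the noise regions were split evenly, 6 above and 6 below the mock mean. The means were 1.81 ± 1.13 (SD, n = 16) and 2.19 ± 1.37 (n = 12). Jun had a log2 fold change of 0.17 (SE 0.19, 95% confidence interval -0.19 to 0.53, adjusted p = 0.721 by limma). In supporting cells the means were 1.72 ± 1.63 (n = 14) after mock exposure and 1.89 ± 0.864 (n = 8) after noise, with a log2 fold change of 0.16 (SE 0.22, 95% confidence interval -0.26 to 0.58, adjusted p = 0.841). An interval that includes both 0 and a rise of 0.5 on this scale leaves a modest change of Jun neither shown nor bounded away.

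The mean of Jun in mock supporting cells rested on 1 region. In 13 of 14 such regions Jun was at 1 read, with signals from 0.624 to 1.56, each the worth of 1 read in its region. The remaining region, replicate 8, had 7 reads and a signal of 7.28. Without it the mean of the group was 1.29 ± 0.325 (SD, n = 13). The neuron region of the same captured area had the highest Jun value of all mock neurons, 4.68. After noise, 6 of 8 supporting-cell regions were above 1 read. The share of regions above 1 read was thus 7.14% after mock exposure and 75% after noise. Over all genes tested the median share was 50% and 75%, and 0.320% of genes had a difference as large as that of Jun. Noise supporting-cell regions were also deeper. Among regions in which 1 read was worth at most 1.1, a limit chosen after the values were seen, Jun was above 1 read in 1 of 7 mock and 5 of 7 noise regions. Median depths there were 15508 and 19154 reads. The change in share was not tested, and the part of depth in it was not tested either.

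Jun was not shown to differ between region types. Its log2 difference, neurons minus supporting cells, was 0.08 under mock exposure (SE 0.17, adjusted p = 0.787 by limma) and 0.08 after noise (SE 0.22, adjusted p = 0.898). Over the mock areas it was higher in neurons in 6, in supporting cells in 6, and equal in 2. In most areas with the higher value in supporting cells both regions were at 1 read, as at 0.520 and 1.04. There only the worth of 1 read differed. In the areas with the higher value in neurons, the neuron region had more than 1 read of Jun and the supporting-cell region 1 read. Over the 7 noise areas Jun was higher in neurons in 2, in supporting cells in 4 and equal in 1. The mean log2 difference was -0.18, opposite in sign to the 0.08 over all noise regions.

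**Figure D2:**
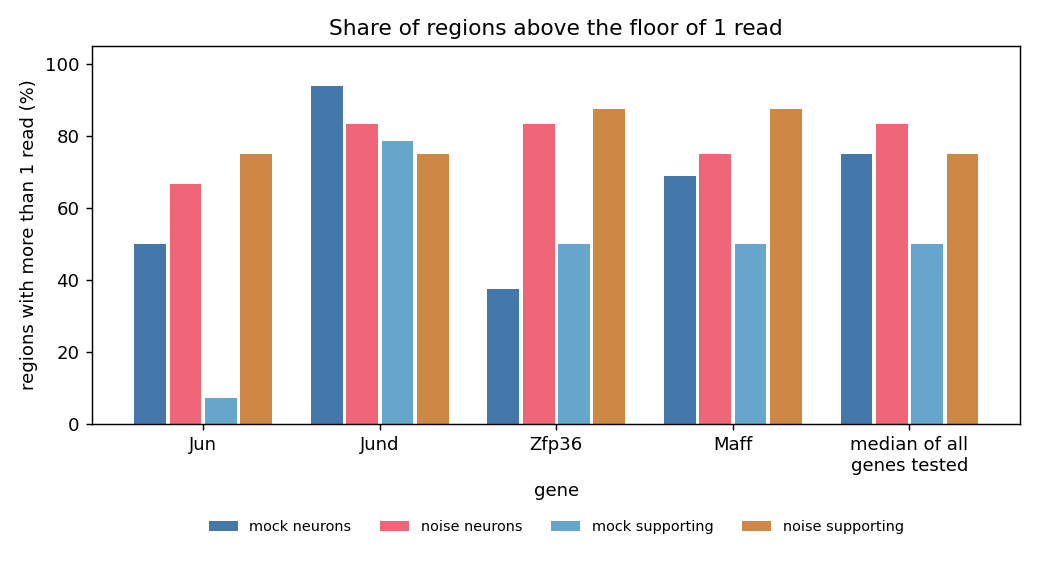
Percent of regions in which each gene had more than 1 read (y axis), by group, beside the median over all 4686 genes tested. Jun goes from 7.14% of mock to 75% of noise supporting-cell regions, while the median over all genes goes from 50% to 75%.

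Zfp36, the gene of the mRNA decay factor, had its lowest levels in mock neurons. Its signal there ran from 0.520 through a median of 1.30 to 2.49, and 6 of 16 regions had more than 1 read. In noise neurons it ran from 0.780 through 1.56 to 3.64, and 10 of 12 regions had more than 1 read. Of the noise neuron regions 9 of 12 lay above the mock mean, although the ranges overlapped. The means were 1.27 ± 0.495 (SD, n = 16) and 1.69 ± 0.721 (n = 12), and the highest noise value, replicate 2, stood at 3.64 where the other 11 reached at most 2.08. Zfp36 had a log2 fold change of 0.24 (SE 0.19, 95% confidence interval -0.13 to 0.60, adjusted p = 0.606 by limma), with p = 0.0687 in the two-sided permutation test. Both of these neuron means lay low within the background. The background was taken from 568 olfactory receptor genes, which are silent in most tissues outside the nose. Of these, 1.58% had a mean below that of Zfp36 in mock neurons and 15.0% in noise neurons. The median log2 fold change of those genes was 0.19 in the same comparison, against 0.02 for all genes. With the mean of those genes as a covariate, Zfp36 came to 0.06 (adjusted p = 0.972 by limma). On the log2 scale that covariate was 1.41 ± 0.112 in mock and 1.60 ± 0.105 in noise neurons. It moved with the treatment, so the fit cannot fully tell background and noise apart. The part of the background in the Zfp36 value was not tested beyond that fit.

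In supporting cells Zfp36 ranked higher among the olfactory receptor genes, with 44.4% of them below its mean after mock exposure and 79.4% after noise. Only the noise mean thus lay above most of them. Mock regions ran from 1.04 through a median of 1.72 to 4.68, and noise regions from 0.624 through 3.51 to 4.68. More than 1 read was found in 7 of 14 mock and 7 of 8 noise regions, and the groups overlapped over the whole mock range. The means were 2.21 ± 1.13 (SD, n = 14) and 3.10 ± 1.53 (n = 8). The log2 fold change was 0.31 (SE 0.22, 95% confidence interval -0.11 to 0.74, adjusted p = 0.698 by limma), and the exact permutation test gave p = 0.199. The noise effects in the 2 region types differed by 0.08 (SE 0.29, adjusted p = 0.979 by limma).

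Zfp36 was lower in neurons than in supporting cells under mock exposure, by -0.46 on the log2 scale (SE 0.18, 95% confidence interval -0.81 to -0.11, adjusted p = 0.0466 by limma with the area block). A lower level in neurons passed for 6.19% of all genes. The olfactory receptor genes moved the same way: 422 of 465 tested were lower in neurons, with a median of -0.23, and 41 passed as lower. Of the 16 mock neuron regions 15 lay below the mean of mock supporting cells. That mean, 2.21, was above the median of its own group, 1.72. At 1 read were 7 of 14 supporting-cell and 10 of 16 neuron regions. In 11 of 14 areas the supporting-cell region had the higher value (exact sign-flip permutation p = 0.00757). In several of these areas, such as one with 0.520 in neurons and 1.56 in supporting cells, both regions were at 1 read. There only the worth of 1 read differed. The limma call of Zfp36 stood close to the threshold. It was lost in 9 of 13 alternative analyses, among them edgeR (-0.69, adjusted p = 0.216) and subtraction of the negative probe (-0.35, adjusted p = 0.360). Another was the fit with the replicate number as a block (-0.46, adjusted p = 0.0604). It was also lost in 14 of 50 fits that left out 1 region, where the adjusted p ran up to 0.111, without mock supporting-cell replicate 3. The negative probe was itself higher in mock supporting cells than in mock neurons, 1.54 against 1.09, and its part in the call was not tested beyond that subtraction. After noise the difference was -0.53 (SE 0.22, 95% confidence interval -0.96 to -0.10, adjusted p = 0.133 by limma), 11 of 12 neuron regions lay below the supporting-cell mean, and 5 of 7 areas had the higher value in supporting cells. With 7 areas the exact sign-flip test cannot go below p = 0.0156, and it gave p = 0.188.

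**Figure D3:**
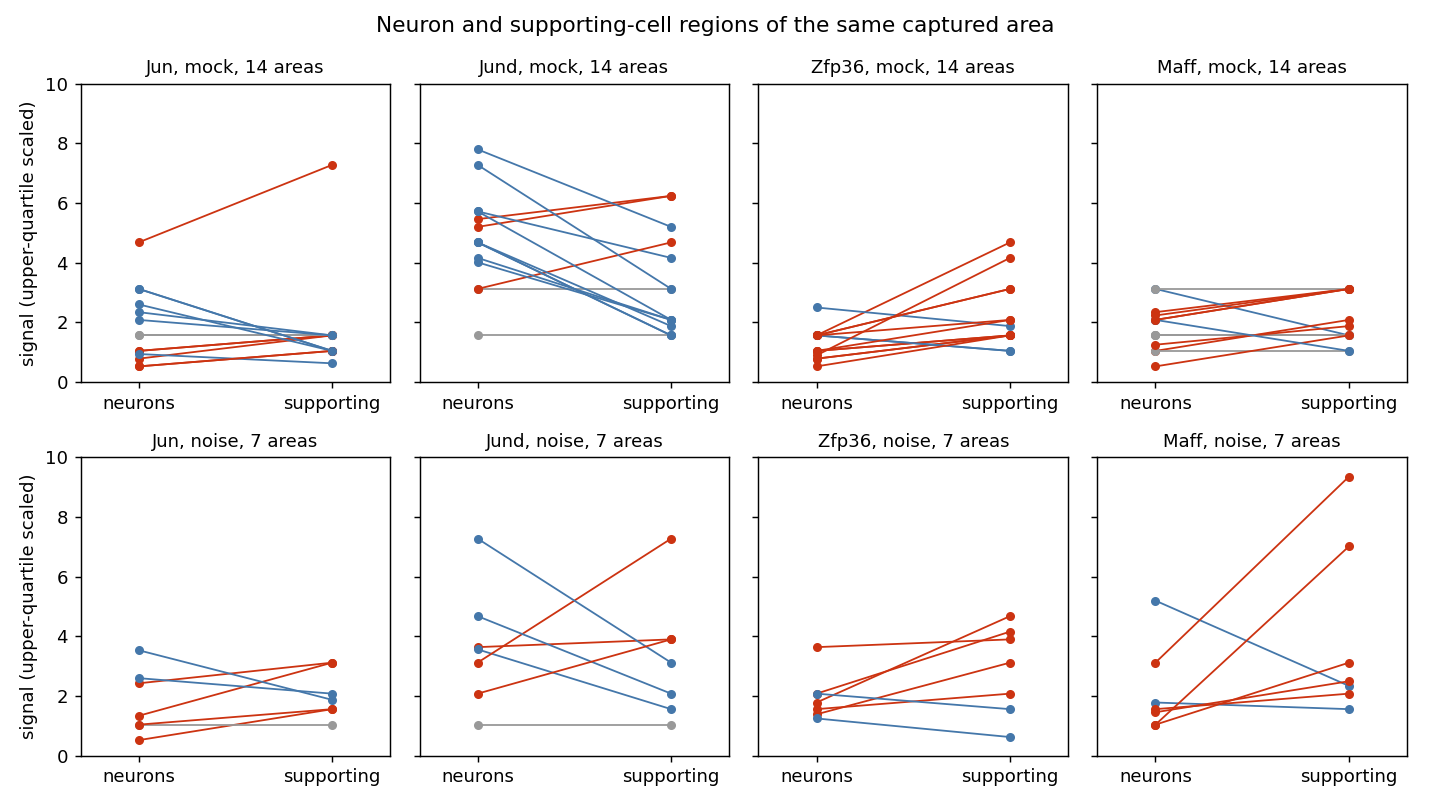
Signal of each gene in the neuron and the supporting-cell region of one captured area, joined by a line, for 14 mock and 7 noise areas; the y axis is the deposited signal, blue lines mark areas with the higher value in neurons, red lines areas with the higher value in supporting cells and grey lines equal values. Under mock exposure Jund was higher in neurons in 9 areas and Zfp36 higher in supporting cells in 11.

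Maff, the small Maf gene, had the same median in neurons of both treatments. Its signal ran from 0.520 through a median of 1.56 to 3.12 in mock neurons, with 11 of 16 regions above 1 read. In noise neurons it ran from 0.780 through 1.56 to 5.20, with 9 of 12 above 1 read. The ranges overlapped, and the 5.20 of noise neuron replicate 2 was the only value above the mock range. The means were 1.74 ± 0.753 (SD, n = 16) and 1.96 ± 1.20 (n = 12), and without that region the noise mean was 1.66 ± 0.663 (n = 11). The log2 fold change was 0.08 (SE 0.19, 95% confidence interval -0.30 to 0.46, adjusted p = 0.896 by limma), and it came to -0.03 without that region.

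In supporting cells Maff had the largest noise difference of the 4 genes, and it rested on 2 regions. Mock regions ran from 1.04 through a median of 1.72 to 3.12, with 7 of 14 above 1 read. The 8 noise regions held 2.34, 1.56, 3.12, 2.34, 2.08, 2.49, 9.36 and 7.02, with 7 of 8 above 1 read. Replicates 7 and 8 stood above every mock region, and the other 6 lay inside the mock range. The means were 2.10 ± 0.830 (SD, n = 14) after mock exposure and 3.79 ± 2.82 (n = 8) after noise. The log2 fold change was 0.50 (SE 0.23, 95% confidence interval 0.06 to 0.94). Its unadjusted limma p of 0.0267 became 0.409 after adjustment, and 10.1% of all genes had an unadjusted p under 0.05 here. The exact permutation test gave p = 0.0560. Without both regions, a choice made after the values were seen, the noise mean was 2.32 ± 0.511 (n = 6) and the log2 fold change was 0.13 (adjusted p = 0.922); it was 0.32 without replicate 7 alone and 0.37 without replicate 8 alone. For replicate 8 the deposited table listed an additional read file from another well. The glia markers lay lower in the same noise regions. All 7 glia markers measured had log2 fold changes below 0, beside 2542 of all 4686 genes. Of the 7 markers 4 passed as lower, beside 14 of all genes. The summed signal of these markers ran from 34.3 to 59.2 after noise and from 85.8 to 148 after mock exposure. The part of this in the Maff value was not tested.

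Between region types Maff was lower in neurons by -0.18 under mock exposure (SE 0.18, adjusted p = 0.515 by limma). After noise the difference was -0.60 (SE 0.23, 95% confidence interval -1.05 to -0.15, adjusted p = 0.0857), and 11 of 12 neuron regions lay below the mean of supporting cells, which includes replicates 7 and 8. Over the 7 noise areas Maff was higher in neurons in 2 and in supporting cells in 5 (exact sign-flip permutation p = 0.156). The difference over all noise regions passed under edgeR on recovered reads (-1.04, adjusted p = 0.0272) and on log2 depth-scaled reads (-1.01, adjusted p = 0.0481), and without supporting-cell replicates 7 and 8 it was -0.23 (adjusted p = 0.690). The noise effects in the 2 region types differed by 0.42 (SE 0.30, adjusted p = 0.889 by limma).

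**Figure D4:**
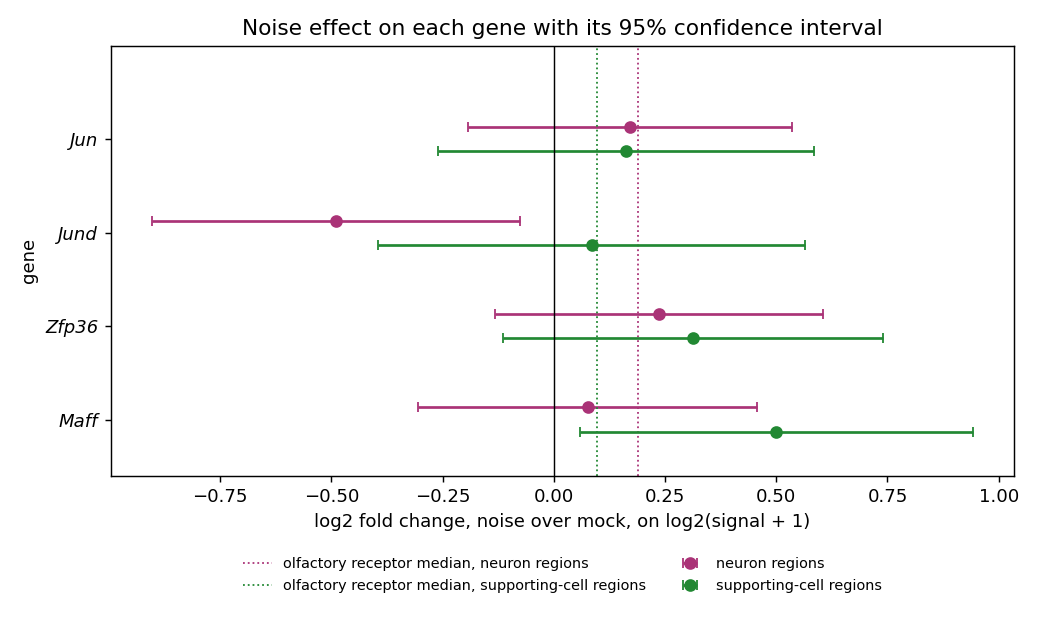
Log2 fold change of noise against mock (x axis, log2(value + 1) scale) for the 4 genes in neuron and supporting-cell regions, with 95% confidence intervals; dotted lines mark the median of the olfactory receptor genes, 0.19 in neurons and 0.10 in supporting cells. Only the intervals of Jund in neurons and Maff in supporting cells leave out 0, and neither gene passed after adjustment.

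The order of the 4 groups differed from gene to gene. By mean log2(value + 1), Jund was lowest in mock supporting cells at 1.98, with noise supporting cells at 2.07, noise neurons at 2.08 and mock neurons at 2.57. Zfp36 and Maff shared another order, mock neurons, noise neurons, mock supporting cells and noise supporting cells, at 1.15, 1.39, 1.61 and 1.92 for Zfp36 and at 1.40, 1.48, 1.58 and 2.08 for Maff. Jun ran from 1.31 in mock supporting cells through 1.39 in mock neurons and 1.47 in noise supporting cells to 1.56 in noise neurons. No neighbours in any of these orders differed past an adjusted p of 0.05 by limma.

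From region to region the 4 genes varied with little in common. After each group mean was taken off, Spearman's rho between pairs of them over the 50 regions lay between -0.34 (Jun and Zfp36) and 0.19 (Jun and Jund). Their rho with log2 reads per region was 0.01 for Jun, 0.27 for Jund, -0.11 for Zfp36 and -0.10 for Maff. Across the 14 mock areas the neuron and the supporting-cell value of a gene had a rho of 0.23 for Jun, 0.41 for Jund, 0.20 for Zfp36 and 0.47 for Maff. Across the 7 noise areas it was 0.58, 0.09, 0.47 and -0.27 in the same order. Of 4646 genes compared, those most like Jun in this sense were Bcat1 (rho 0.54), Rps24 (0.50) and Hspa12a (0.50). Those most like Jund included Hsp90ab1, a constitutive Hsp90 chaperone (0.61), and Ldb1 (0.51). Those most like Zfp36 were Olfr608 (0.56), Prkcz (0.53) and Nutm2 (0.47), and those most like Maff included Lypd10 (0.44) and the Notch effector gene Rbpj (0.41). All of these values share their regions' depth and scaling and are descriptions only.

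No partner or relative of the 4 genes passed for noise. Of 31 AP-1, CREB and CNC or small Maf factors, 11 were tested, Jun, Jund and Maff among them, and none passed in either region type. Their log2 fold changes had a median of 0.02 in neurons and -0.05 in supporting cells, beside 0.02 and -0.03 over all genes. Next to Jund the largest size in neurons was that of Maf, a large Maf factor, with 4.34 ± 2.59 (SD, n = 16) after mock exposure and 2.89 ± 0.865 (n = 12) after noise (log2 fold change -0.34, adjusted p = 0.472 by limma). In supporting cells it was that of Mafa next to Maff, with 2.87 ± 1.68 (n = 14) and 1.70 ± 1.12 (n = 8) (-0.49, adjusted p = 0.425). Between region types under mock exposure 3 of the 11 passed, beside 20% of all genes, and all 3 were higher in neurons, beside 13.8%: Jund, the AP-1 repressor gene Jdp2 (0.64, adjusted p = 0.00822) and Nfe2l1 (1.06, adjusted p = 3.64e-06). Jdp2 and Nfe2l1 also passed after noise, where 8.28% of all genes did, at 0.73 (adjusted p = 0.0370) and 1.05 (adjusted p = 0.00122). Of 41 other immediate-early genes 3 were tested and none passed for noise; Rhob was at 0.32 in neurons (adjusted p = 0.478), Sik1 at 0.22 and Rgs2 at -0.17. The remaining immediate-early genes of that list, Egr1 among them, were not tested here.

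Upstream of Jun and of the serum response, 14 of 41 MAP kinase pathway genes were tested and none passed for noise. Their log2 fold changes had a median of -0.10 in neurons and 0.01 in supporting cells. The JNK scaffold gene Mapk8ip1 had the largest size in supporting cells, with 5.10 ± 2.96 (SD, n = 14) after mock exposure and 2.91 ± 1.81 (n = 8) after noise (-0.62, adjusted p = 0.325 by limma). Between region types under mock exposure 8 of the 14 passed, beside 20% of all genes, and 7 of them were higher in neurons, beside 13.8%. Of 41 genes of the Zfp36 family and of mRNA decay 8 were tested and none passed for noise, with medians of 0.00 in neurons and -0.06 in supporting cells. The largest size was that of Hnrnpd, which encodes another protein that binds AU-rich elements, in supporting cells, with 2.62 ± 2.29 (n = 14) and 1.07 ± 0.297 (n = 8) (-0.63, adjusted p = 0.313).

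Downstream genes showed no shift that passed either. Of 16 transcripts known to be bound by Zfp36 only Plaur, the urokinase receptor gene, was tested. Its log2 fold change in neurons was 0.49 (adjusted p = 0.193 by limma). Noise neuron replicate 5 stood at 22.6, the other 11 noise regions averaged 1.76 ± 1.20 (SD), and mock neurons averaged 1.29 ± 0.749 (n = 16). The change without replicate 5 was not tested. Of 20 Nfe2l2 and small Maf targets 6 were tested. In neurons 5 had log2 fold changes below 0 and in supporting cells all 6 did, with medians of -0.17 and -0.20. Over all 4686 genes, 2171 and 2542 lay below 0, with medians of 0.02 and -0.03. None of the 6 targets passed. The ferritin light chain gene Ftl1 was at 3.50 ± 1.42 (n = 16) in mock and 2.25 ± 0.958 (n = 12) in noise neurons. Of 19 AP-1 targets in injury 4 were tested and none passed. Among them the stress gene Ddit3 was at 1.52 ± 0.928 (n = 16) in mock and 2.30 ± 0.905 (n = 12) in noise neurons, and Vim, an intermediate filament gene, at 2.85 ± 1.35 (n = 14) in mock and 1.61 ± 0.641 (n = 8) in noise supporting cells.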

How the data were processed

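GeoMx signal values were taken from 1 deposited file per region. The signal had been scaled to a common upper quartile by the authors, as the values of the files show; DRAGEN and the build mm10/GRCm38 are named per the submitters' processing notes, and the probe filter is not given in the sources used here. Of the values, 99.97% were whole multiples of 1 read within 0.01; 66 entries with no number were treated as missing, and the reads of 1 gene that did not come out whole were left out of the count tests. Region areas came from the header of the deposited table; area names differ by treatment, so slide and treatment cannot be told apart.

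The main test was limma 3.58.1 in R 4.3.3 (lmFit, eBayes with a trend) on log2(value + 1) over 50 regions, with the 4 group means as coefficients, for genes whose mean was at or above the 0.25 quantile (a signal of 1.85). Comparisons between region types had the captured area as a random block (correlation 0.0389). Adjusted p-values were Benjamini-Hochberg over 4686 genes, called at 0.05. The 16 two-sided permutation tests over regions used all rearrangements where exact and 100000 resamples otherwise; they and the 8 sign-flip tests over areas were not adjusted. Alternatives were other pseudocounts and filters, log2 CPM, edgeR 4.0.16 and DESeq2 1.42.0 on recovered reads (both without the area block), subtraction of the negative probe, the mean of olfactory receptor genes as a covariate, the area block swapped, the replicate number as a block, the region with equal values kept in, and each region left out. The fit was tested on simulated data with 100 genes changed 2-fold and 100 changed 4-fold by noise. At an adjusted p of 0.05 it recovered 51% and 77% of them in neurons. In supporting cells it recovered 25% and 71%. Many changes of 2-fold were thus missed.

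The 4 genes and the gene lists were chosen with earlier results of these data known. Named besides the 4 genes were the 2 largest fold changes of a list in each noise comparison, some of which are printed, and the 3 genes most like each of the 4; some genes picked by these rules are not reported here; Jdp2 and Nfe2l1 were added as the calls between region types, after their values were seen. Start sites and sequences are from RefSeq, GRCm38.p6, matched for all 4 genes. None of 5 macrophage markers was measured. Of 5 blood markers and 6 hair-cell markers 1 and 3 were measured, with summed medians of 1.56 and 16.6 in mock neurons. Of 6 bone and connective tissue markers 2 were measured, with a summed median of 32.6 in mock neurons.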

Additional observations from a re-analysis of the deposited data

Results flagged for a closer look

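The negative probe of noise supporting-cell replicate 2 stood at 1.89, apart from the other 7 regions of its group at 1.24 to 1.44. Its gap to the nearest region was large for a group of 8 by Dixon's criterion, which chance meets in about 1 of 20 groups, and 23 quantities were examined. In that region Zfp36 was at 4.68, Jun at 3.12, and Jund and Maff at 1.56. Without it the difference between region types after noise was -0.71 for Maff (adjusted p = 0.0424 by limma).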

How the results depend on the processing

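None of the 4 genes passed for noise against mock under the alternatives that gave it an adjusted p. In neurons these were 12 for Jun and Zfp36, 13 for Maff and 14 for Jund (adjusted p of 0.164 to 0.996), and in supporting cells 12 for Jun and Zfp36 and 13 for Maff and Jund (0.320 to 0.996). DESeq2 gave an adjusted p only for Jund in neurons, and Jun and Zfp36 fell below the filter at the median. With 1 region left out the adjusted p ran from 0.169 to 0.973 and from 0.290 to 0.985; Jun fell below the filter in 3 of those 50 fits. The count of genes called in neurons, 31, was 7 after subtraction of the negative probe, 183 by edgeR, 130 by DESeq2 and 3 with the olfactory receptor covariate. In supporting cells 17 became 11 with no filter, 6 on log2 CPM, 8 by edgeR and 2 without noise replicates 7 and 8. Between region types DESeq2 called 537 under mock exposure and 226 after noise, and the olfactory receptor covariate left 412 under mock exposure. The cause of these moves was not tested. With 1 region left out the counts ran from 12 (without noise neuron replicate 2) to 35 in neurons and from 3 (without noise supporting-cell replicate 7) to 21 in supporting cells. They moved by over 1.5 times without noise neuron replicates 1 (16), 2, 9 (19) or 10 (16) and mock neuron replicates 9 (19) or 10 (19), and without noise supporting-cell replicates 4 (11), 5 (7), 7 or 8 (7) and mock supporting-cell replicates 6 (10), 8 (11), 9 (11) or 12 (9).

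Under mock exposure the Zfp36 difference was not called with a pseudocount of 5 (-0.19), with no filter or no area block (both -0.46), after subtraction of the negative probe (-0.35), by edgeR (-0.69), by DESeq2 (-0.89), with the olfactory receptor covariate (-0.23) or in the deeper regions (-0.49). The Jund difference was not called on log2 CPM (0.62), by DESeq2 (0.62) or with the covariate (0.26). Left out 1 region at a time, Jund ran from 0.53 to 0.66 and Zfp36 from -0.51 to -0.39. The Zfp36 call was lost without any one of mock neuron replicates 1, 3, 5, 7, 10, 12, 13 and 16 or mock supporting-cell replicates 3, 7, 11, 12, 13 and 14 (adjusted p of 0.0535 to 0.111). Maff after noise was called on log2 CPM (-1.01) and by edgeR (-1.04), and ran from -0.71 to -0.42 with 1 region left out; Zfp36 after noise ran from -0.70 to -0.45. Maff was called there without noise neuron replicate 2 (adjusted p = 0.0309 by limma) or noise supporting-cell replicate 2, and Zfp36 without noise supporting-cell replicate 6 (adjusted p = 0.0347).

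Values near 0 changed sign, none of them called. On log2 CPM these were Jun (-0.037 under mock exposure, -0.063 after noise and 0.017 for the difference of noise effects) and Jund after noise (-0.12). Jund after noise was also at -0.0050 with a pseudocount of 5, -0.16 by DESeq2, -0.15 with the covariate, -0.028 in the deeper regions and -0.11 without noise supporting-cell replicates 7 and 8. Subtraction of the negative probe gave 0.13 for Jun in the difference of noise effects and 0.048 for Maff under mock exposure. The covariate gave -0.013 for Maff in neurons after noise, and for Jun -0.23 under mock exposure and -0.074 after noise. The deeper regions gave -0.051 for Zfp36 in the difference of noise effects, and leaving out replicates 7 and 8 gave Jun 0.085 there and -0.0099 after noise. With 1 region left out, the ranges that crossed 0 were -0.028 to 0.14 for Maff in neurons, -0.056 to 0.23 for Jund in supporting cells, -0.096 to 0.083 for Jun and -0.0075 to 0.25 for Zfp36 in the difference of noise effects, and -0.011 to 0.17 for Jun and -0.13 to 0.15 for Jund between region types after noise.

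Replicate numbers were shared by the groups but did not pair the regions: deviations of same-numbered noise and mock neuron regions correlated between -0.10 and 0.01 over 12 pairs, and none of the 8 supporting-cell pairs exceeded 0.1. With the replicate block 19 genes were called in neurons, Jund in supporting cells came to -0.0054, and Zfp36 under mock exposure to -0.46.

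Depth limits all of these results. With 1 read worth up to 1.56, most values of Jun, Zfp36 and Maff are a few reads.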
